A study of Drosophila melanogaster with 12 samples.

Results

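Translation factors are the proteins that load ribosomes onto mRNA and drive them along it. The genes described here are those whose symbol begins with eIF or eEF followed by a digit, that is, the translation initiation and elongation factor genes of Drosophila melanogaster. They were chosen by symbol alone, and a gene with several probe sets was represented by the one with the highest mean level over the 12 arrays. The choice gave 41 genes, which carried 47 probe sets, of 13966 probe sets that were not array controls and of 10844 genes named by a probe set with 1 gene symbol. All 41 gene symbols had an entry in the gene table used for names. Some factors, such as eEF1alpha1, eEF2, eIF2alpha, eIF2gamma, eIF1A, eIF4B and eIF4EHP, were not analysed here.

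The study followed gene expression in heads of adult y w flies, a laboratory strain with mutant alleles of yellow, which darkens the body, and of white, which is needed for eye pigment, to find transcripts that follow the time of day. Flies kept for 3 days under 12 h of light and 12 h of darkness were sampled every 4 h through 1 more such day (LD) and through the next day, spent in constant darkness (DD). The hours of sampling were 2, 6, 10, 14, 18 and 22 after true or subjective lights-on. Every time point is 1 Affymetrix array of roughly 100 to 200 pooled heads, so that there are 6 arrays in LD and 6 in DD, all of the same genotype and with the same prior light cycles. The ages and sexes of the flies are not given in the labels used here, and constant darkness always followed the light/dark day, so regime and order of the days cannot be told apart.

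In cap-dependent initiation, eIF4E binds the cap of an mRNA, the scaffold eIF4G joins it to the helicase eIF4A, and the large complex eIF3 bridges the mRNA to the small ribosomal subunit. That subunit carries the initiator tRNA bound to eIF2, which is recharged with GTP after each round by the exchange factor eIF2B, while eIF1, eIF5 and eIF5B govern start codon choice and joining of the large subunit. During elongation, eEF1A brings each aminoacyl-tRNA to the ribosome and the other eEF1 subunits recharge it. The core factors among these genes are expressed in nearly every cell, whereas some paralogues, such as eIF4G2, are known for roles in particular tissues. The head is a mixture of neurons, eye, muscle, fat body and other tissues. In such a mixture fewer cells of a type and less RNA per cell cannot be told apart.

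Levels are log2 values, normalized by the authors, and are compared only within a probe set, since brightness differs between probe sets for reasons other than mRNA abundance. The array medians lay between 5.37 and 5.40, and the mean level of the 41 genes lay between 6.71 at DD hour 22 and 7.01 at DD hour 10. The arrays differed in how strongly the 5′ ends of the control transcripts of actin, GAPDH and eIF-4a were seen relative to their 3′ ends, a difference in log2 units called the 5′ minus 3′ signal here. Over the 3 transcripts it was lowest at DD hour 18 (-2.51) and DD hour 22 (-2.45), followed by LD hour 2 (-2.02) and DD hour 14 (-1.89), and lay between -1.76 and -1.51 in the other 8 arrays. From actin and GAPDH alone those 4 arrays lay between -2.44 and -2.25, and the other 8 between -1.87 and -1.52. The signal from eIF-4a alone was low only at DD hours 18 and 22 (-2.70 and -2.47), and at LD hour 2 (-1.29) and DD hour 14 (-1.18) it was the highest of all. Thus all 3 night arrays of DD, and the first array of LD, had a low actin and GAPDH signal, so that subjective night and low signal cannot be told apart within DD. The mean signal of the 3 transcripts did not differ between the regimes beyond the spread of the arrays (DD minus LD -0.23, p = 0.297 by an exact two-sided permutation test with 924 splits). The p-values below reflect how far these arrays scatter, for which biological and technical sources are not separated, and with 6 arrays per regime the precision is limited. Differences are given in log2 units with standard errors, and a gene was called when its limma p-value was under 0.05 after Benjamini-Hochberg adjustment across the 13966 probe sets.

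**Figure D1:**
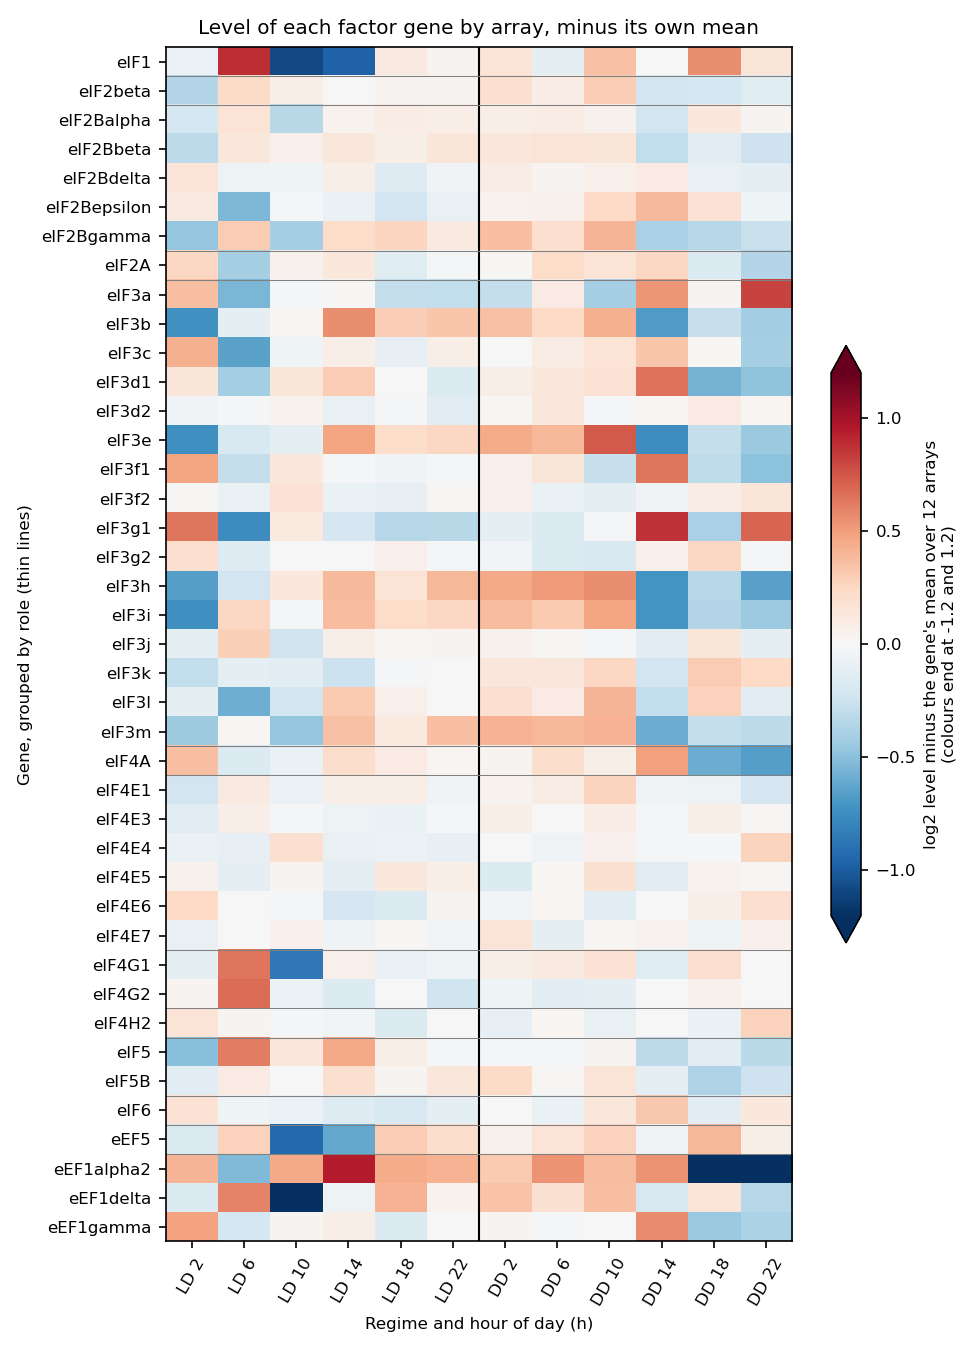
Level of each of the 41 factor genes (rows, grouped by role) in each of the 12 arrays (columns, by regime and hour of day) as colour, in log2 units from the gene's own mean over the arrays. The column of DD hour 14 and that of LD hour 2 resemble each other, and eEF1alpha2 is lowest at DD hours 18 and 22 (6.66 and 6.46).

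The first question of the design, whether the factor genes followed a 24 h rhythm over both days, gave no call. None of the 41 genes passed the test for a 24 h cosine and sine with a term for regime, against 3 of all probe sets (0.0215%), and none had an unadjusted limma p under 0.05, against 654 of all probe sets. The median amplitude of the factor genes, which is the height of the fitted peak above the mean, was 0.11, beside 0.07 over all probe sets. An amplitude is never negative and grows with scatter, and the median standard errors were 0.09 and 0.05. The smallest p among them belonged to eIF4E6, a member of the cap-binding eIF4E family, with an amplitude of 0.12 ± 0.05 (limma, adjusted p = 0.967). eIF3g2, a second gene for the RNA-binding g subunit of eIF3, had 0.11 ± 0.05, and eIF3d1, which encodes the d subunit, had 0.26 ± 0.12. The cap-binding protein gene eIF4E1 had 0.11 ± 0.05 and eIF2beta, a subunit of the initiator tRNA carrier eIF2, had 0.14 ± 0.07. The GTPase-activating factor gene eIF5 had 0.20 ± 0.10, the elongation factor gene eEF5 had 0.23 ± 0.13, and eEF1alpha2 had the highest amplitude of the 41, 0.60 ± 0.32. All adjusted p-values of the 8 named genes were 0.967.

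Fitted separately, the curves of the 2 days were not called either, in LD, in DD or in their difference. In LD 2 of the 41 genes had an unadjusted limma p under 0.05, against 5.66% of all probe sets. They were eIF4E6 (amplitude 0.19 ± 0.06, peak at hour 2.62) and eIF3b (0.49 ± 0.16, peak at hour 15.7). In DD 8 of the 41 (19.5%) had an unadjusted p under 0.05, against 11.5% of all probe sets. They were eEF1alpha2 (amplitude 1.40 ± 0.30, peak at hour 8.23, limma adjusted p = 0.254), the eIF3 subunit genes eIF3h, eIF3e, eIF3m, eIF3i and eIF3b (amplitudes between 0.49 and 0.68, peaks between hours 5.40 and 6.05), the helicase gene eIF4A (0.47 ± 0.14) and the subunit-joining GTPase gene eIF5B (0.25 ± 0.08). For the difference of the curves 6 of the 41 genes had an unadjusted p under 0.05, against 9.96% of all probe sets. They were the same 5 eIF3 subunit genes and eEF1alpha2, whose difference was 1.68 ± 0.42 (limma, adjusted p = 0.333).

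The mean level in DD against that in LD differed for no factor gene after adjustment, while 21 of all probe sets (0.15%) were called. Unadjusted, 2 of the 41 genes had a limma p under 0.05 with the higher level in DD, against 2.79% of all probe sets. eIF3k encodes a small peripheral subunit of eIF3. In LD its level was between 8.32 and 8.61, with a median of 8.49, and in DD between 8.38 and 8.92, with a median of 8.80. The arrays of the regimes overlapped only through DD hour 14, since the other 5 DD arrays stood above every LD array. The share of all probe sets with such an order was not counted. DD minus LD of eIF3k was 0.28 ± 0.09 (limma, adjusted p = 0.550). eIF2Bepsilon, the catalytic subunit of the exchange factor eIF2B, was between 5.22 and 5.88 in LD (median 5.68) and between 5.71 and 6.16 in DD (median 5.88). Its difference of 0.28 ± 0.11 did not pass (adjusted p = 0.631), and the groups overlapped. Among the other genes named for this comparison, eIF4E3 (0.08 ± 0.05) and eIF3d2 (0.09 ± 0.05) were above 0, whereas eIF5 (-0.25 ± 0.15), eEF1alpha2 (-0.71 ± 0.45), eIF5B (-0.11 ± 0.10) and eIF4A (-0.15 ± 0.18) were below it, with adjusted p-values between 0.789 and 0.896. Without the arrays of DD hours 18 and 22 the last 3 of these changed sign, to 0.18 for eEF1alpha2, 0.02 for eIF5B and 0.17 for eIF4A.

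The comparison of day hours (2, 6 and 10) with night hours (14, 18 and 22) gave the calls among the factor genes, and all of them were in DD or in the contrast between the regimes. In DD 3 of the 41 genes were called, all higher in the subjective day, against 0.53% of all probe sets called in that direction. They encode eIF3 subunits: eIF3h, an MPN domain subunit, and eIF3e and eIF3m, which carry PCI domains. The call of eIF3h holds for its brighter probe set only, since the dimmer one had a difference of -0.54 ± 0.19 (limma, adjusted p = 0.166). The values of eIF3h that follow are those of the brighter probe set. eIF3h stood at 10.11, 10.16 and 10.21 at DD hours 2, 6 and 10, and at 8.93, 9.31 and 9.003 at hours 14, 18 and 22. eIF3e stood at 8.90, 8.86 and 9.19 by day and at 7.71, 8.17 and 8.01 by night. eIF3m stood at 9.20, 9.18 and 9.20 by day and at 8.19, 8.50 and 8.47 by night. In each of the 3 genes every day array of DD lay above every night array, and DD hour 14 was the lowest. Day minus night was 1.08 ± 0.17 for eIF3h, a fold of 2.11, 1.02 ± 0.17 for eIF3e, a fold of 2.03, and 0.81 ± 0.13 for eIF3m, a fold of 1.75, each with a limma adjusted p of 0.0309 (n = 3 arrays against 3). No member was called lower by day, a direction in which 0.408% of all probe sets were called.

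Other subunit genes of the same complex stood just outside the threshold in DD. eIF3b encodes the scaffold subunit that binds eIF3i and eIF3g, and it had day levels of 7.76, 7.65 and 7.84 and night levels of 6.73, 7.13 and 6.99, a difference of 0.80 ± 0.17 (limma, adjusted p = 0.0510). eIF3i, a WD40 repeat subunit, had day levels of 8.52, 8.45 and 8.61 and night levels of 7.42, 7.79 and 7.70, a difference of 0.89 ± 0.20 (adjusted p = 0.0537). In both genes the DD groups did not overlap. Over all 41 genes, day arrays lay wholly above night arrays in DD for 12 (29.3%), against 13% of all probe sets, and wholly below them for 2 (4.88%), eIF3g2 and eIF4G2, against 13.6%. The 12 were eIF2beta, eIF2Bbeta, eIF2Bgamma, eIF3b, eIF3e, eIF3h, eIF3i, eIF3m, eIF4E1, eIF5, eIF5B and eEF1delta. Of the 41, 11 were higher by day with an unadjusted p under 0.05, against 9.37% of all probe sets, and 2 were lower by day, eIF3a and eIF3g2, against 8.88%. eIF3a, the largest subunit and an organiser of the complex, was at 7.15, 7.54 and 7.04 by day and at 7.97, 7.48 and 8.25 by night, which is -0.66 ± 0.24 (adjusted p = 0.174) with overlapping groups. eIF3g1, the more brightly measured g subunit gene, was at 8.11, 8.04 and 8.21 by day and at 9.09, 7.84 and 8.92 by night, and its difference of -0.50 ± 0.34 did not pass. eIF3g2 had a difference of -0.22 ± 0.10 (adjusted p = 0.261) and eIF4E6 one of -0.14 ± 0.10 (adjusted p = 0.489).

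In LD the same hours gave differences of the opposite sign for these eIF3 genes, and none was called. eIF3h stood at 8.99, 9.42 and 9.77 by day and at 10.04, 9.82 and 10.04 by night, eIF3e at 7.72, 8.27 and 8.34 by day and at 8.93, 8.68 and 8.70 by night, and eIF3m at 8.35, 8.79 and 8.32 by day and at 9.14, 8.90 and 9.14 by night. Every LD night array lay above every LD day array in all 3 genes, an order whose share over all probe sets was not counted. LD hour 2 was the lowest array of the day for eIF3h and eIF3e, whereas LD hour 10 was the lowest for eIF3m. Day minus night in LD was -0.57 ± 0.17 for eIF3h, -0.66 ± 0.17 for eIF3e, -0.57 ± 0.13 for eIF3m and -0.67 ± 0.17 for eIF3b, with limma adjusted p-values between 0.559 and 0.715. No factor gene and 1 probe set of all (0.00716%) was called in LD. Unadjusted, 7 of the 41 were lower by day with p under 0.05, against 3.42% of all probe sets, and 1 was higher by day, against 2.34%. That 1 gene was eIF4G2, an eIF4G paralogue known for its role in the male germ line, with 0.34 ± 0.15 and a single high array at LD hour 6 (3.73, the others between 2.82 and 3.09). eIF4E6 (0.18 ± 0.10), eIF6 (0.17 ± 0.11), which keeps free large ribosomal subunits apart from small ones, and eIF4H2 (0.12 ± 0.10) were above 0 without passing.

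**Figure D2:**
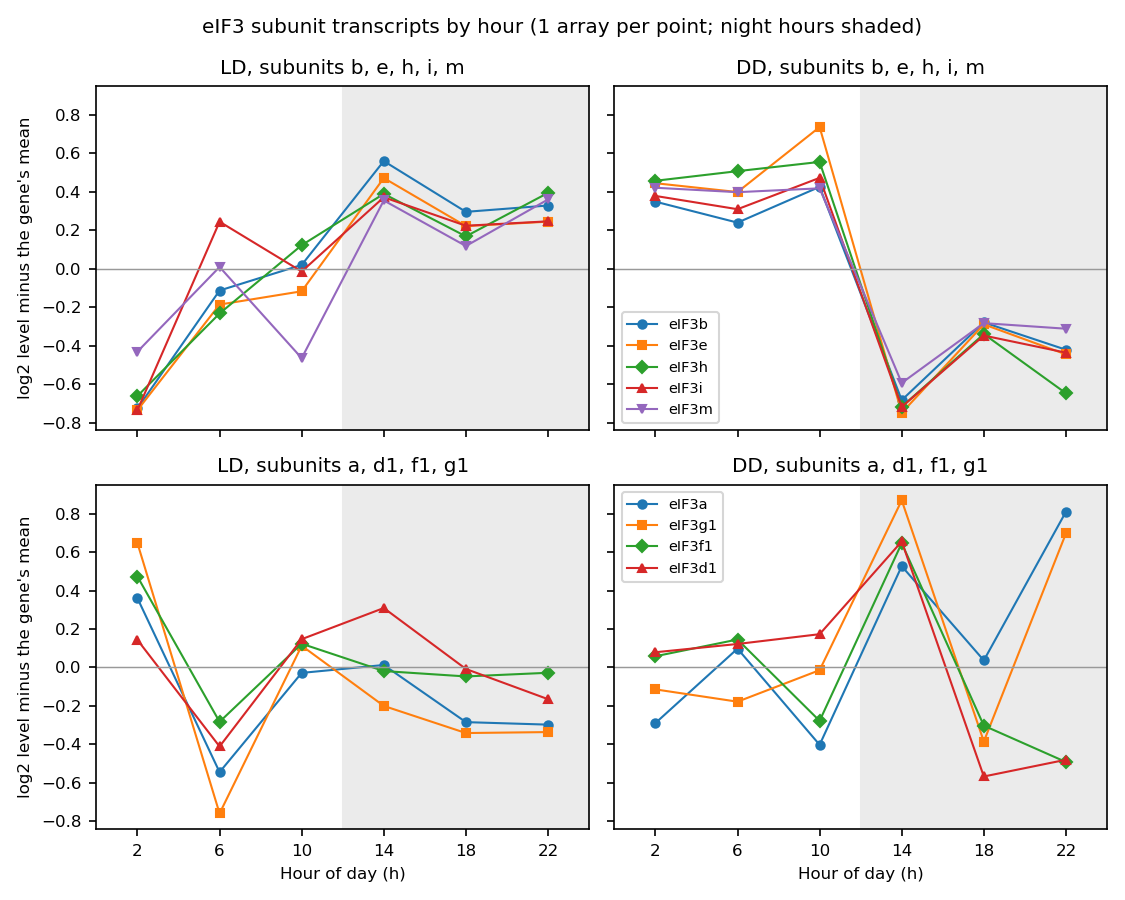
Levels of eIF3 subunit genes by hour of day in LD (left) and DD (right), in log2 units from the gene's own mean over the 12 arrays. One point is 1 array, and night hours are shaded. The upper panels show eIF3b, eIF3e, eIF3h, eIF3i and eIF3m, which lie together and are lowest at LD hour 2 or DD hour 14, and the lower panels show eIF3a, eIF3d1, eIF3f1 and eIF3g1, which are highest at DD hour 14 except for eIF3a, highest at DD hour 22 (8.25).

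The difference between the regimes was itself tested, as day minus night in LD less day minus night in DD. It was called for 6 of the 41 genes, all below 0, against 1.35% of all probe sets called below 0 and 0.788% called above it. It was -1.38 ± 0.18 for eIF3m, -1.68 ± 0.24 for eIF3e and -1.65 ± 0.24 for eIF3h, each with a limma adjusted p of 0.0179. It was -1.47 ± 0.24 for eIF3b (adjusted p = 0.0223) and -1.34 ± 0.28 for eIF3i (adjusted p = 0.0394). The sixth gene, eIF2Bgamma, encodes the partner of eIF2Bepsilon in the catalytic part of eIF2B. It stood at 4.49, 5.26 and 4.56 by day and at 5.17, 5.21 and 5.06 by night in LD, and at 5.32, 5.16 and 5.36 by day and at 4.56, 4.62 and 4.69 by night in DD, so that only the DD groups did not overlap. Its contrast was -1.04 ± 0.23 (adjusted p = 0.0464). Above 0 and not called were eIF3a (0.77 ± 0.34), eIF4E6 (0.32 ± 0.14), eIF4G2 (0.45 ± 0.22) and eIF4H2 (0.24 ± 0.14). Of the 16 eIF3 subunit genes, 5 were therefore called in this contrast, eIF3h by its brighter probe set only, and of the 5 eIF2B genes, 1.

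**Figure D3:**
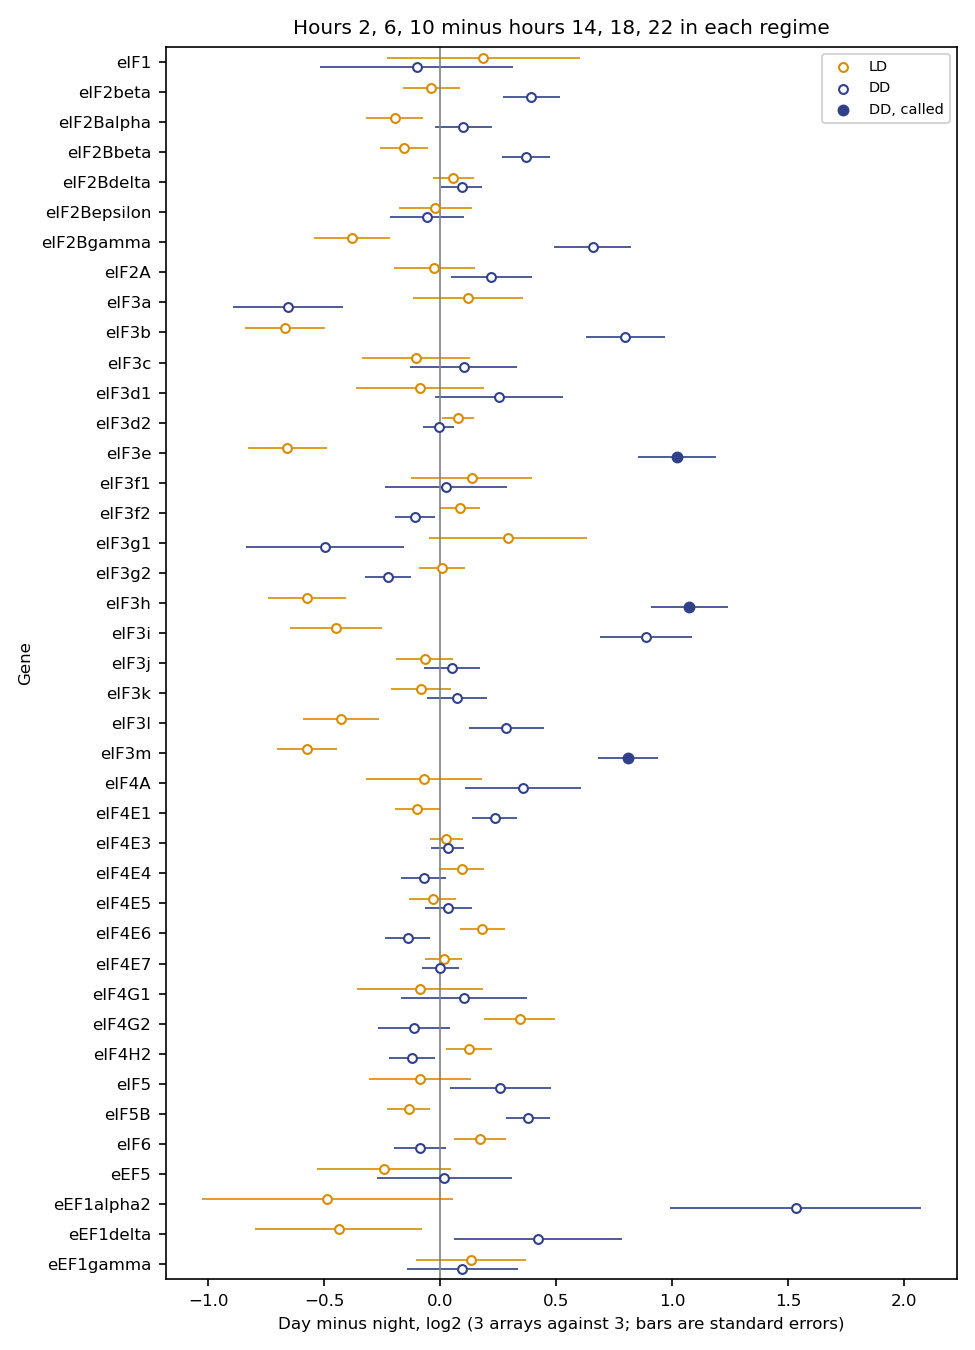
Day hours minus night hours for each factor gene in LD (orange) and DD (blue), in log2 units, from 3 arrays against 3, with standard errors as bars. Filled points are called, and these are eIF3e, eIF3h and eIF3m in DD, at 1.02, 1.08 and 0.81.

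These calls depended on few arrays, as did those over all probe sets. Each of the 12 arrays was left out in turn, and the 3 calls in DD were kept in 5 of the 12 omissions, with effects of 1.00 to 1.19 for eIF3h, 0.89 to 1.12 for eIF3e and 0.71 to 0.87 for eIF3m. They were lost without LD hours 18 or 22 or without DD hours 2, 6, 10, 18 or 22, with limma adjusted p-values up to 0.138. In each of these omissions at most 2 of all probe sets (0.0143%) were called in DD, in place of 131 on all arrays. The contrast between the regimes was kept in 9 of 12 omissions for eIF3m, in 7 for eIF3e and eIF3h, in 5 for eIF3b, in 4 for eIF3i and in 1, that of LD hour 6, for eIF2Bgamma, with effects that stayed below 0. All 6 were lost without DD hours 2, 6 or 10. The contrast then called 1, 1 and 2 of all probe sets, in place of 299. Beyond these arrays, eIF3e was lost without LD hours 18 or 22, and eIF3h without LD hour 22 or DD hour 22. eIF3b was lost without LD hours 14, 18 or 22 or DD hour 22, and eIF3i without those arrays or DD hour 14. Of all probe sets, 29, 12 and 15 were called without LD hours 14, 18 and 22. Without DD hour 22 there were 19, and without DD hour 14 there were 340. Adjusted p-values of the contrast went up to 0.0606 for eIF3m, eIF3e and eIF3h, 0.0730 for eIF3b, 0.0947 for eIF3i and 0.111 for eIF2Bgamma. Without LD hour 6, day minus night in LD was called for eIF3m (-0.73, adjusted p = 0.0151) and for eIF2Bgamma (-0.63, adjusted p = 0.0115), with 0.494% of all probe sets called. With either version of the 5′ minus 3′ signal added to the fit, no factor gene and no other probe set was called in DD or in the contrast. The difference of eIF3h in DD was then 1.01 with the signal of 3 transcripts (adjusted p = 0.999) and 0.63 with that of actin and GAPDH (adjusted p = 1.00), that of eIF3e was 0.99 and 0.50, and that of eIF3m was 0.78 and 0.51. The contrast with the signal of 3 transcripts was -1.35 for eIF3m, -1.64 for eIF3e, -1.57 for eIF3h, -1.34 for eIF3b, -1.04 for eIF3i and -0.68 for eIF2Bgamma (adjusted p-values from 0.517 to 0.758). With that of actin and GAPDH the values were, in the same order, -0.996, -1.01, -1.08, -0.70, -0.26 and -0.25, each with an adjusted p of 1.00. The effects of the first 4 genes thus stayed near those without a covariate under the former signal and were smaller under the latter, where eIF3i and eIF2Bgamma came closest to 0. Without both DD hours 18 and 22 the differences of eIF3h, eIF3e and eIF3m in DD were 1.22, 1.28 and 1.01, with an adjusted p of 0.175 for each. The contrast then ran from -1.94 for eIF3e to -1.10 for eIF2Bgamma, larger in size than on all arrays for each of the 6 genes and with adjusted p-values from 0.0604 to 0.112. Without LD hour 2 and DD hour 14 the DD differences were 1.00, 0.89 and 0.71, with adjusted p-values of 0.00329, 0.00402 and 0.0141, and 11 of the 41 genes were called in DD, while the share of all probe sets called in DD rose to 6.46%. Single omissions also added calls in DD. Without LD hour 2 there were 9 of the 41 (4.54% of all probe sets), without LD hour 6 there were 8 (5.13%), and without DD hour 14 there were 6 (3.24%).

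Markers of other cell types were set beside this pattern, because the same arrays could differ in tissue make-up. Of 12 neuron genes 9 were measured, and Syn and elav were called lower by day in DD, by -1.03 ± 0.13 (limma, adjusted p = 0.0309) and -1.07 ± 0.19 (adjusted p = 0.0330). Of the 9, 7 had an unadjusted p under 0.05 in that direction, against 8.88% of all probe sets. The mean level of the 9 was 4.90 to 4.998 by day and 5.28 to 5.38 by night in DD. That direction was opposite to that of the 3 eIF3 genes called in DD. Of 12 photoreceptor genes 6 were measured, and the scaffold gene inaD was called higher by day in DD (1.09 ± 0.16, adjusted p = 0.0309), with a list mean of 10.23 to 10.37 by day and 9.56 to 9.90 by night. For 8 flight muscle genes the mean was 6.30 to 6.71 by day and 5.91 to 6.10 by night, again without overlap. The groups overlapped for 11 ovary genes (5.39 to 5.57 and 5.28 to 5.48), 9 fat body genes (10.12 to 10.20 and 10.03 to 10.20) and 9 midgut genes (6.38 to 6.95 and 6.36 to 6.47), and 15 measured testis and accessory gland genes stood at 4.43 to 4.46 by day and 4.47 to 4.65 by night without overlap. In the contrast between the regimes, 3 of the 9 neuron genes were called above 0, Syn (1.34 ± 0.19, adjusted p = 0.0179), elav (1.34 ± 0.27, adjusted p = 0.0370) and the GABA receptor gene Rdl (0.62 ± 0.12, adjusted p = 0.0322). In that direction 7 of the 9 had an unadjusted p under 0.05, against 1227 of the 13966 probe sets. Of the 6 photoreceptor genes, inaD was called below 0 (-1.26 ± 0.23, limma, adjusted p = 0.0295), as the called factor genes were. Of these 6, 4 had an unadjusted p under 0.05 in that direction, against 1406 of the 13966 probe sets. The contrast of 3 of the 8 flight muscle genes was below 0 at an unadjusted p under 0.05, and none was called. In LD the neuron mean was 5.19 to 5.38 by day and 5.06 to 5.12 by night. No marker is at 0, since the values are log2 levels, and the photoreceptor markers that define head tissue were bright on every array, the lowest list mean being 9.56. The part of tissue make-up in the result was not tested.

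The level of each factor gene was then related to the 5′ minus 3′ signal over the 12 arrays, with regime and a 24 h cosine and sine in the fit. On the signal of all 3 control transcripts no factor gene was called, against 19 of all probe sets (0.136%). Unadjusted, 11 of the 41 rose with the signal at a limma p under 0.05, against 8.54% of all probe sets, and 2 fell with it, against 8.32%. The slope is the log2 level per log2 unit of signal. It was 0.58 ± 0.09 for eIF5B (limma, adjusted p = 0.0509), 1.02 ± 0.24 for eIF2Bgamma (0.0833) and 1.18 ± 0.28 for eIF3m (0.0881). It was 1.205 ± 0.35 for eIF3b, 1.32 ± 0.38 for eIF3h and 2.18 ± 0.64 for eEF1alpha2, with adjusted p-values between 0.136 and 0.139. Below 0 were eIF4E6 (-0.33 ± 0.10, adjusted p = 0.144), eIF3a (-0.82 ± 0.35, adjusted p = 0.276), eIF4H2 (-0.25 ± 0.13), eIF3g2 (-0.24 ± 0.12), eIF3f2 (-0.20 ± 0.12) and eIF4E4 (-0.20 ± 0.14). Without DD hour 14, 8 of the 41 genes were called, against 4.45% of all probe sets, among them eIF3b with a slope of 1.26 (adjusted p = 0.00451) and eIF3m with 1.22 (adjusted p = 0.00496). Without LD hour 6 or DD hour 18, 1 gene, eIF5B, was called, with slopes of 0.58 (adjusted p = 0.0484) and 0.57 (adjusted p = 0.0496), against 0.372% and 1.27% of all probe sets.

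One of the 3 control transcripts is that of eIF4A, itself a factor gene, so the slope was also fitted on the signal of actin and GAPDH alone, an alternative to the signal of all 3. On it 10 of the 41 genes were called as rising, against 5.61% of all probe sets, and 2 as falling, against 3.57%. The median slope of the 41 was 0.11, beside -0.03 over all probe sets. Among eIF3 genes the slope was 1.29 ± 0.14 for eIF3i (limma, adjusted p = 0.00111), 1.30 ± 0.17 for eIF3b (0.00242), 1.17 ± 0.16 for eIF3m (0.00244), 1.42 ± 0.21 for eIF3e (0.00339) and 1.36 ± 0.23 for eIF3h (0.00613). In the eIF2 and eIF2B group it was 1.01 ± 0.13 for eIF2Bgamma (0.00236), 0.52 ± 0.09 for eIF2Bbeta (0.00810), a regulatory subunit, and 0.50 ± 0.10 for eIF2beta (0.0153). It was 0.47 ± 0.09 for eIF5B (0.0119) and 0.33 ± 0.09 for eIF4E1 (0.0378). The 2 genes called as falling were eIF4E6 (-0.31 ± 0.07, adjusted p = 0.0277) and eIF3a (-0.90 ± 0.24, adjusted p = 0.0409), and eIF3g1, with -1.01 ± 0.36, did not pass (0.114). eIF4E6 was dim, between 3.76 and 4.20 on every array, a level at which differences are hard to see above background. On the signal of eIF-4a alone the slopes of eIF3b, eIF3h, eIF3m and eIF2Bgamma were 0.05, 0.14, 0.20 and 0.17, with adjusted p-values of 0.951 or above. The arrays of low signal behind these slopes are those of subjective night in DD and LD hour 2, a day array. These values are therefore not independent of the day and night differences in either regime.

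**Figure D4:**
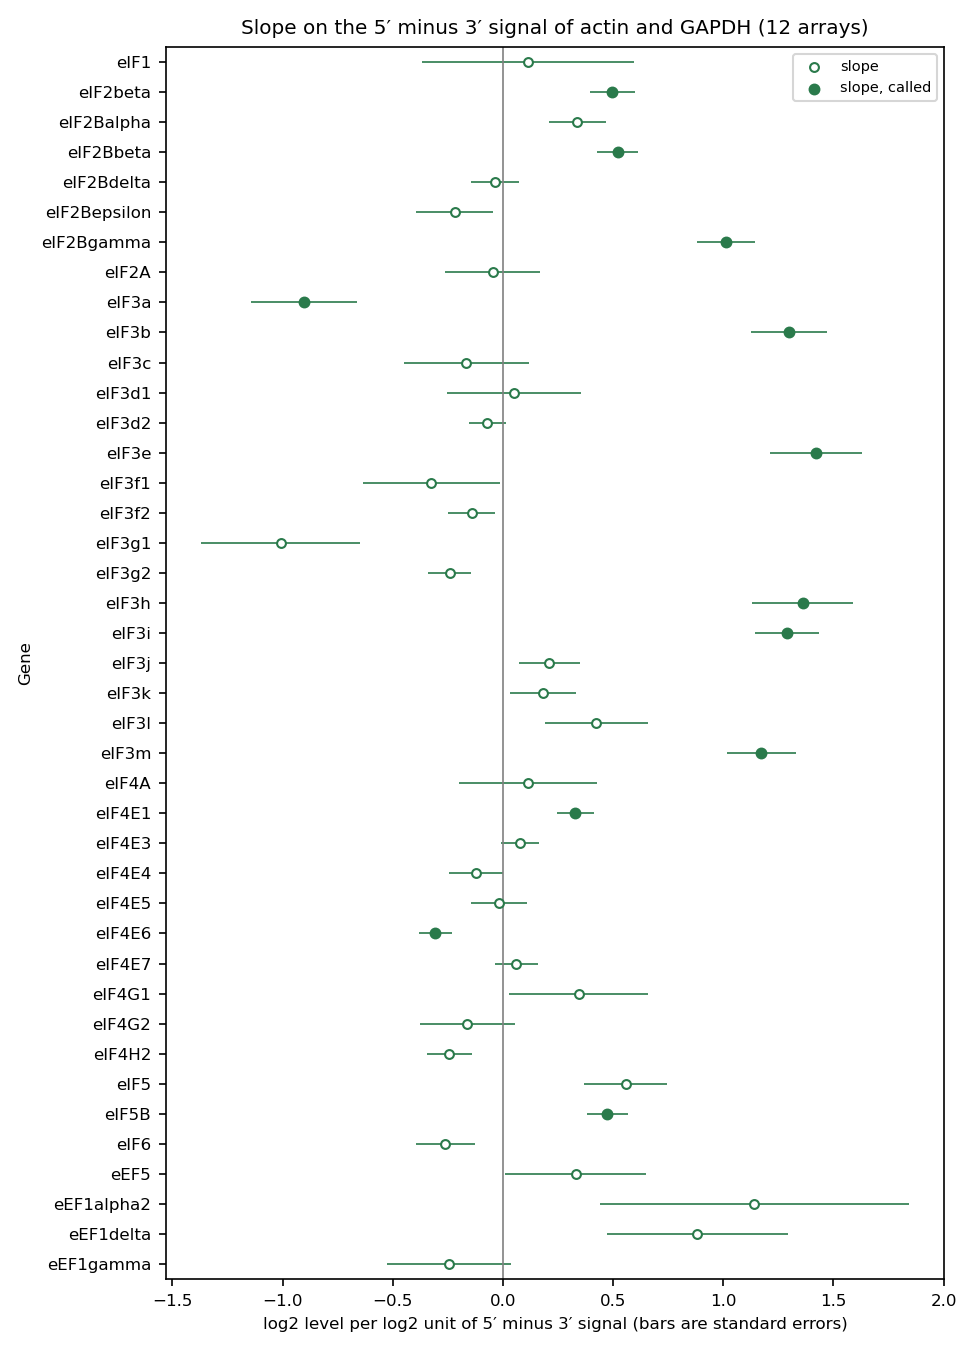
Slope of the log2 level of each factor gene on the 5′ minus 3′ signal of actin and GAPDH over 12 arrays, with regime and a 24 h curve in the fit and standard errors as bars. Filled points are called, 10 above 0, of which eIF3e is the highest at 1.42, and 2 below 0, eIF4E6 and eIF3a.

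Read array by array, the factor genes showed opposite orders at the same arrays. For 8 of the 41 (19.5%), against 4.58% of all probe sets, the 4 lowest arrays were LD hour 2 and DD hours 14, 18 and 22, the 4 arrays of lowest signal. They were eIF2beta, eIF2Bbeta, eIF3b, eIF3e, eIF3h, eIF3i, eIF5 and eIF5B. eIF2beta stood at 7.87 at LD hour 2 and at 8.001, 8.01 and 8.08 at the 3 DD nights, beside 8.22 to 8.53 elsewhere. eIF2Bbeta stood at 6.62 at LD hour 2 and at 6.64, 6.80 and 6.68, beside 6.998 to 7.09 elsewhere, and eIF5 at 5.997 and at 6.18, 6.36 and 6.17, beside 6.48 to 7.11. For 7 other genes (17.1%), against 6.77% of all probe sets, LD hour 2 and DD hour 14 were instead the 2 highest arrays. They were eIF2Bdelta, eIF2A, eIF3c, eIF3f1, eIF4A, eIF6 and eEF1gamma. eIF3f1, an MPN domain subunit, stood at 10.30 and 10.48 in these 2 arrays and between 9.34 and 9.98 in the others, while eEF1gamma, a subunit of the elongation exchange factor, stood at 10.60 and 10.68 and otherwise between 9.67 and 10.19. Subunit genes of eIF3 were thus found on both sides, with eIF3b, eIF3e, eIF3h and eIF3i lowest and eIF3c and eIF3f1 highest at LD hour 2 and DD hour 14.

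eIF4A, the RNA helicase of cap-dependent initiation, allows a direct view of its own transcript along its length, since the array holds control probe sets for its 5′ end, middle and 3′ end beside the gene's probe set. The gene's probe set stood at 11.99, 11.47, 11.55, 11.84, 11.72 and 11.65 at LD hours 2 to 22 and at 11.66, 11.84, 11.70, 12.12, 11.03 and 10.97 at DD hours 2 to 22. It was highest at DD hour 14 and LD hour 2 and lowest at DD hours 22 and 18. The 3′ control stood at 11.15 and 10.90 at DD hours 18 and 22 and between 11.09 and 11.73 in the other arrays, whereas the 5′ control stood at 8.45 and 8.43 in these 2 arrays and between 9.68 and 10.55 in the others. The drop at DD hours 18 and 22 was therefore wider at the 5′ end, where these 2 arrays lay apart from the rest, than at the 3′ end, where DD hour 18 overlapped them. The actin and GAPDH signal falls into 2 separate sets of arrays, so no correlation is given over all 12. Within the 8 arrays of higher signal, no relation of the eIF4A level to it was detected. Pearson's r was 0.16 (exact permutation p = 0.695) and Spearman's rho was 0.048 (exact permutation p = 0.935). Without the 2 arrays farthest from their median r was -0.11 (exact permutation p = 0.906). The 8 arrays span only -1.87 to -1.52 in signal, so these values cannot show that a relation is absent.

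The genes eIF2Bdelta, eIF3h, eIF4E7, eIF5B and eIF6 had more than 1 probe set, and those of eIF3h disagreed. The dimmer probe set of eIF3h stood at 6.94 at LD hour 2 and at 6.80, 7.25 and 7.12 at the DD nights, and between 6.06 and 6.65 in the other arrays. It was thus highest in the arrays in which the brighter one was lowest. Its day minus night difference in DD was -0.54 ± 0.19 (limma, adjusted p = 0.166), and its slope on the actin and GAPDH signal was -0.74 ± 0.16 (adjusted p = 0.0207), against 1.36 ± 0.23 for the brighter probe set. With the mean of both probe sets, the DD difference of eIF3h was 0.27 (adjusted p = 0.314) and its contrast between the regimes was -0.50 (adjusted p = 0.177), so both calls of eIF3h hold for its brighter probe set only. When the probe sets of each gene were averaged in this way, eIF5B was called instead. Its DD difference was 0.36 (limma, adjusted p = 0.0461) and its contrast -0.47 (adjusted p = 0.0441), with 0.76% and 2.11% of all averaged features called. For eIF2Bdelta the brighter probe set had a slope of -0.04 ± 0.11 and the dimmer one of -0.43 ± 0.09 (adjusted p = 0.0137). The 3 probe sets of eIF5B had slopes of one sign, 0.47 ± 0.09, 0.42 ± 0.11 (adjusted p = 0.0329) and 0.25 ± 0.12 (adjusted p = 0.262). The dimmer probe sets of eIF6 and eIF4E7 had slopes of -0.11 ± 0.12 and -0.10 ± 0.09. Where in the transcript each probe set lies was not analysed here.

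**Figure D5:**
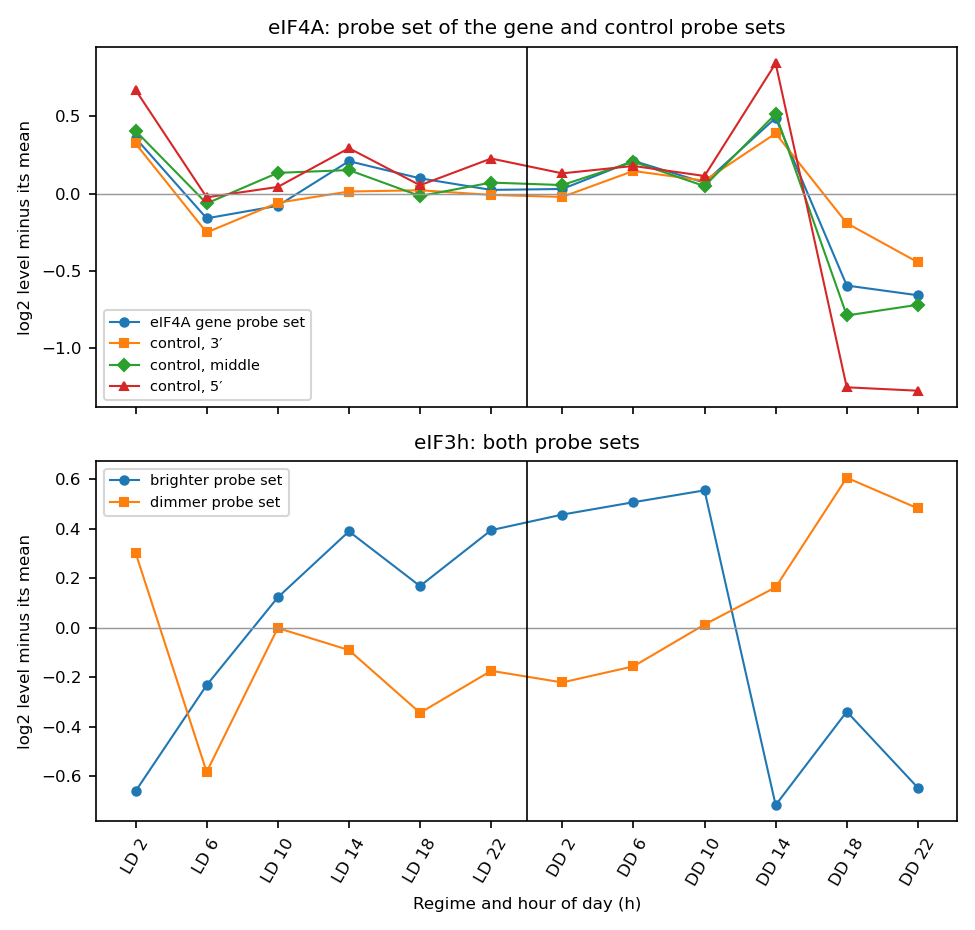
Levels by array of several probe sets of 1 gene, in log2 units from each probe set's own mean. In the upper panel the eIF4A probe set and its 3′, middle and 5′ control probe sets are all highest at DD hour 14 and lowest at DD hours 18 and 22, save that the 3′ control is about as low at LD hour 6 (11.09) as at DD hour 18 (11.15), and in the lower panel the 2 probe sets of eIF3h run in opposite directions at LD hour 2 and in the DD nights.

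Of the 41 genes, eEF1alpha2 had the widest range over the 12 arrays. This isoform of the factor that delivers aminoacyl-tRNA stood at 8.93, 7.99, 8.97, 9.45, 8.96 and 8.93 over LD and at 8.83, 9.05, 8.89, 9.06, 6.66 and 6.46 over DD. It was lower at DD hours 18 and 22 than in any other array, the lowest of which was LD hour 6, and DD hour 14 was not low, so that its DD night arrays overlapped the day arrays. Its day minus night difference in DD was 1.53 ± 0.54, the highest of the 41 and not called on all arrays. Without DD hour 14 it was 2.37 (limma, adjusted p = 0.00428), and its contrast between the regimes was -2.85 (adjusted p = 0.0116), so that both were called when that 1 array was left out. Without DD hours 18 and 22, which are also the farthest from the median signal, its slope was -0.32 (limma, adjusted p = 0.792) in place of 2.18. eEF1delta, another exchange factor subunit, was lowest at LD hour 10 (5.41) and otherwise between 6.42 and 7.36. eEF5, also known as eIF5A, which helps ribosomes through difficult stretches such as runs of proline, was lowest at LD hours 10 and 14 (8.43 and 8.75) and otherwise between 9.19 and 9.77.

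Of the remaining initiation factor genes, eIF4E1 and eIF4E6 were called for the slope on the actin and GAPDH signal, as given above, and the others described here were not called in the fits on all 12 arrays. eIF1, which keeps the scanning ribosome from starting at the wrong codon, stood at 7.88 at LD hour 6, at 5.92 and 6.03 at LD hours 10 and 14, and between 6.89 and 7.55 in the others. eIF4G1, the scaffold gene, was likewise highest at LD hour 6 (6.34) and lowest at LD hour 10 (4.83), and was between 5.55 and 5.88 elsewhere. LD hours 6 and 10 were also the highest and the lowest array of LD for eEF1delta. Among the eIF4E family, eIF4E1, the general cap-binding protein, ranged from 8.18 at LD hour 2 to 8.69 at DD hour 10. The other 5 family genes were dim and moved little. eIF4E3 stood between 3.62 and 3.86, eIF4E4 between 3.36 and 3.72, eIF4E5 between 2.53 and 2.88, eIF4E6 between 3.76 and 4.20, and eIF4E7 between 3.30 and 3.57. The second gene copies eIF3d2 (4.42 to 4.68), eIF3f2 (4.61 to 4.89) and eIF3g2 (4.17 to 4.60) and the eIF4H2 gene (3.17 to 3.61) were also dim, with ranges of at most 0.44. Differences at such low levels are hard to see above background, and hybridisation to a related transcript of these families was not tested. Of the other genes, eIF3l ranged from 8.24 to 9.23, eIF3c from 6.63 to 7.70, eIF3d1 from 7.55 to 8.77, eIF3j, a loosely bound subunit, from 5.56 to 6.08, eIF2A, an alternative carrier of initiator tRNA, from 8.79 to 9.44, and eIF2Balpha from 5.84 to 6.33.

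Other genes of translation and its control were counted by list in the same fits. Of 20 cytosolic tRNA synthetase genes 18 were measured, and 2 were called higher by day in DD, GlnRS (0.58 ± 0.09, limma, adjusted p = 0.0309) and AsnRS (0.63 ± 0.12, adjusted p = 0.0389), which charge tRNA with glutamine and asparagine. GlnRS stood at 7.23, 7.30 and 7.38 by day and at 6.64, 6.84 and 6.67 by night in DD, with no overlap, and its contrast between the regimes was also called (-0.80 ± 0.13, adjusted p = 0.0217). Of 22 initiation regulators 16 were measured and 1 was called, pAbp, the poly(A)-binding protein that joins the mRNA tail to eIF4G. It stood at 9.75, 8.69 and 9.20 by day and at 8.67, 8.40 and 8.61 by night in LD, and at 8.30, 8.45 and 8.53 by day and at 9.44, 9.15 and 9.79 by night in DD. Neither regime's groups overlapped. DD night lay wholly above DD day in 13.6% of all probe sets, and the order in LD was not counted over them. The contrast of pAbp was 1.69 ± 0.32 (limma, adjusted p = 0.0305), opposite in sign to that of the 5 called eIF3 genes. None of the 6 measured termination and recycling genes of 7, of the 16 measured TOR and insulin pathway genes of 24, or of the 9 measured mitochondrial translation factor genes of 11 was called in any comparison. In the release factor pair, eRF1 had a DD difference of 0.49 ± 0.13 (adjusted p = 0.0895) and eRF3 one of -0.38 ± 0.16 (adjusted p = 0.237). S6k, a kinase downstream of TOR, had a day minus night difference of 0.61 ± 0.19 in LD (adjusted p = 0.723), and mEFG1, a mitochondrial elongation factor, had a contrast of -0.57 ± 0.15 (adjusted p = 0.0689).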

How the data were processed

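Each of the 12 arrays measured RNA from 1 pool of fly heads. The deposited values are log2 levels per probe set made by the authors with RMA, per the submitters' processing notes. The version of RMA, and which arrays were normalized together, are not given in the sources used here. No filter was applied to the values. The 44 control probe sets were kept out of the fits. Those for the 5′ and 3′ ends of actin, GAPDH and eIF-4a gave the 5′ minus 3′ signal, and those of eIF-4a were also described beside the eIF4A probe set.

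Models were fitted to 13966 probe sets with limma 3.58.1 (R 4.3.3) and tested on simulated data. They were a 24 h cosine and sine beside regime (8 residual degrees of freedom), a curve for each regime (6), 4 groups of 3 arrays by regime and day or night hours (8), and a slope on the 5′ minus 3′ signal beside regime and a 24 h curve (7). Benjamini-Hochberg adjustment ran across all probe sets, with a threshold of 0.05. Single values per array were tested by exact permutation with scipy 1.17.1. The number of arrays limits the precision, and nothing says that the pools were independent beyond being separate collections.

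Values were named for the 8 genes of smallest p in the rhythm tests, up to 4 per direction in signed comparisons and up to 6 per direction for the slope, every called gene, eIF4A, eEF1alpha2 and the eIF4E family, and up to 2 genes per pathway list. Ranges and array orders of other factor genes, and the values of eIF3g1 on the actin and GAPDH signal, fell outside this rule and were chosen after their values were seen. The correlation of eIF4A, planned over all arrays, was limited to 8 because the signal falls into 2 separate sets. The testis marker listed as don was left out, because its only match by synonym was another gene, svp. The genes and lists were chosen with earlier results of these data known. Alternatives were the brighter probe sets, quantile normalization again, centred arrays, an intensity trend with a robust prior, an average over the probe sets of each gene, the signal as covariate, omission of arrays, and other terms for hour and regime. Omission of LD hour 2 with DD hour 14, and of DD hours 18 and 22, was chosen after the data were seen.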

Additional observations from a re-analysis of the deposited data

Results flagged for a closer look

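An array was set apart where its gap to the nearest other array of its regime, as a share of the range of the 6, passed Dixon's critical value. This was the case in 12 of 112 groups checked, and chance gives about 1 in 20. At LD hour 2, eIF2Bbeta (6.62, the others 6.998 to 7.08) and eIF3i (7.40, the others 8.12 to 8.51) were low and eIF6 (7.11, the others 6.74 to 6.88) was high, and the actin and GAPDH signal was low there (-2.38, the others -1.87 to -1.59). At DD hour 14, eIF2Balpha (5.93, the others 6.202 to 6.30) and eIF3k (8.38, the others 8.75 to 8.92) were low. At LD hour 6, eEF1alpha2 was low (7.99, the others 8.93 to 9.45) and eIF4G2 was high (3.73, the others 2.82 to 3.09). eIF4E4 was high at LD hour 10 (3.64, the others 3.36 to 3.38) and at DD hour 22 (3.72, the others 3.42 to 3.50). At DD hour 22, eIF4H2 was high (3.61, the others 3.23 to 3.36), and the mean of the midgut markers was high at DD hour 2 (6.95, the others 6.36 to 6.47).

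The day minus night difference itself differed between LD and DD for 6 genes, by the contrast test in limma. LD less DD was -1.68 for eIF3e, -1.65 for eIF3h, -1.47 for eIF3b, -1.38 for eIF3m, -1.34 for eIF3i and -1.04 for eIF2Bgamma. All 3 DD night arrays and LD hour 2, a day array, had a low actin and GAPDH signal. The part of that signal in these differences was not tested apart from subjective night.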

How the results depend on the processing

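No factor gene was called for the daily rhythm, the regime, or the curves in LD, in DD and in their difference under any alternative run. The fit of the regime with hour of day as a replicate block called 0 factor genes and 2 probe sets of all, in place of 21. Day minus night in DD called 0 to 9 factor genes when 1 array was left out, with 0 to 5.13% of all probe sets. Its contrast between the regimes called 0 to 9, with 0.00716% to 9.66% of all probe sets. In LD 0 to 2 were called, with 0 to 0.494%, and for the slope 0 to 8, with 0 to 4.45%. The other comparisons called 0 factor genes in these omissions. With either signal as covariate the 3 calls in DD and the 6 of the contrast went to 0, as they did without DD hours 18 and 22, though their effects in the contrast ran from -1.64 to -0.68 with the 3-transcript signal, from -1.08 to -0.25 with that of actin and GAPDH, and from -1.94 to -1.10 without those arrays. Without LD hour 2 and DD hour 14, 11 genes were called in DD and 9 for the slope, with 6.46% and 1.74% of all probe sets. The slope on the signal of 3 transcripts called 0 genes. It called 1, eIF5B, with the brighter probe sets (0.573% of all) and with centred arrays (0.444%), and 1 on the eIF-4a signal (0.165%), which is eIF4A on the signal of its own transcript. It called 7 with no other terms (9.05%), and 12 on the actin and GAPDH signal (9.18%) and without DD hours 18 and 22, the 2 arrays farthest from the median (7.17%). Signs were reversed for genes that were not called in that comparison as first fitted. DD minus LD of eIF5B was 0.024 with the 3-transcript signal as covariate, and without the 4 arrays of lowest signal eEF1alpha2, eIF5B and eIF4A were at 0.45, 0.068 and 0.20 (0.18, 0.025 and 0.17 without DD hours 18 and 22). Day minus night in DD was 0.00042 for eIF3g2 and 0.084 for eIF4E6 with the 3-transcript signal, and 0.090 for eIF3a, 0.092 for eIF3g2, 0.45 for eIF3g1 and 0.16 for eIF4E6 with that of actin and GAPDH, where the contrast was -0.070 for eIF4E6 and -0.18 for eIF3a. The slope of eIF3a, not called on the 3-transcript signal but called on that of actin and GAPDH (-0.90), was 0.0024 on eIF-4a. That of eEF1alpha2 was -0.32 without DD hours 18 and 22. Without the 4 arrays of lowest signal no DD night array is left, so day minus night in DD could not be fitted. New scaling moved array medians by at most 0.0145. The causes were not tested.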
